A study of Mus musculus with 12 samples.

Results

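The 35 kinesin motor genes described here are the genes of a mouse synaptosomal RNA table whose protein-coding symbol is Kif followed by digits and at most 1 letter a, b or c, and that reached a value of 10 in at least 3 of 12 libraries. They were taken from 21492 genes. The pattern matched 36 protein-coding genes, and Kif28, with values of 0 to 3.83, was the 1 left out, while Kif14, the nearest to the threshold among those kept, reached 10 in 7 libraries. RNA was measured from striatal tissue of C57BL/6J males, taken at postnatal day 70. Synaptosomes are pinched-off nerve terminals with attached postsynaptic membrane, and RNA was taken from the synaptosomes themselves (input) and from their polysomes, the messenger RNAs that carry several ribosomes. The 4 groups, with 3 libraries each, were polysome RNA of Shank3 transgenic mice (TG polysome), input RNA of Shank3 transgenic mice (TG input), polysome RNA of wild-type mice (WT polysome) and input RNA of wild-type mice (WT input). The sources used here do not give the promoter of the Shank3 transgene, the cells it is active in or its copy number. Whether the 3 libraries of each group are from different animals is not said in the labels, so every p-value refers to the spread among libraries, which may be technical.

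Kinesins are motor proteins that hydrolyse ATP in a conserved motor domain and move along microtubules or shorten them. In neurons, members of the kinesin-1, kinesin-2 and kinesin-3 families carry mitochondria, synaptic vesicle precursors, receptors and RNA granules away from the cell body into axons and dendrites. Other members build the mitotic spindle, complete cytokinesis or work in cilia. The table holds the authors' normalized counts per gene, and levels of different genes are compared below only per kb of exon. Exonic length was the merged length of all exons annotated for a gene in any transcript. It can exceed the length of each single transcript, so that the order of genes by level depends on this choice.

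The kinesins form close pairs, and several results set 1 member of a pair beside the other, so the coding DNA of 3 pairs is shown at the same place of the motor domain. Each 60-base stretch, 5′ to 3′, has in capitals the 24 bases that encode the ATP-binding loop (the Walker A motif), with 18 bases on either side in lower case. The sequences are from GENCODE M21 transcripts on GRCm38, with the genomic span and strand of each stretch.
Kif5a, chr10:127247622-127248083, minus strand, exons 3 and 4: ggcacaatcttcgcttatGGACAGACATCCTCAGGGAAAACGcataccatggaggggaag
Kif5c, chr2:49680185-49688658, plus strand, exons 3 and 4: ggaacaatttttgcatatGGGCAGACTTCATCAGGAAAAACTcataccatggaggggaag
Kif3b, chr2:153316548-153316607, plus strand, exon 2: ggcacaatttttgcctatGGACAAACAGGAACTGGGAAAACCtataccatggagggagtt
Kif3c, chr12:3366251-3366310, plus strand, exon 1: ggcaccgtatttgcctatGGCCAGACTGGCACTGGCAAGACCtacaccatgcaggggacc
Kif21a, chr15:90997690-90997856, minus strand, exons 2 and 3: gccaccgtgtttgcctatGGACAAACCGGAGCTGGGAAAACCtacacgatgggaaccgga
Kif21b, chr1:136144798-136145165, plus strand, exons 2 and 3: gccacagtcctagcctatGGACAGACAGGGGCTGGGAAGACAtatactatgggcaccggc
A stretch that lies in 2 exons spans an intron in the genome, which the sequence above leaves out. Kif5a and Kif5c were identical at 51 of these 60 bases, against 45 for Kif3b and Kif3c and 47 for Kif21a and Kif21b. Over whole coding sequences, identity was 73.8% of aligned bases for Kif5a and Kif5c, 70.6% for Kif3b and Kif3c and 67.3% for Kif21a and Kif21b. The coding sequences of Kif5a and Kif5c had 0 stretches of 31 bases in common. Over all exons, the largest share of 31-base stretches that a member has in common with any other gene was 6.56%, for Kif24.

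With the most frequent low value of a library taken as 1 read, estimated depth was 76400000 to 102000000 reads in the polysome libraries and 62200000 to 85800000 in the input libraries. A single read was then worth at most 0.846 normalized counts in polysome and at most 1.80 in input, so that the same value rests on fewer reads in input. Shank3, the check of the labels, had 5012, 12626 and 12252 normalized counts in TG polysome, against 1501, 3702 and 5848 in WT polysome, and 5456, 17500.5 and 14107 in TG input, against 2121, 4162 and 5858 in WT input, higher in TG in each pair of libraries with the same number. The difference of TG minus WT was 1.53 ± 0.52 in polysome and 1.57 ± 0.49 in input (log2, SE), with adjusted p-values that rounded to 1.00 without the replicate number as a block and were 0.0205 and 0.0631 with it (limma), and Shank3 was the 1 gene of all tested that passed with the block, in polysome. All 11 markers of medium spiny neurons, the principal neurons of the striatum, were detected, with a summed level of 258712 to 510734 in TG polysome, 230146 to 454134 in TG input, 200673 to 475275 in WT polysome and 198459 to 414426 in WT input. Markers of cortical excitatory neurons, which project to the striatum, summed to 44227 to 133505 in TG polysome, 30572 to 83010 in TG input, 53329 to 110751 in WT polysome and 35506 to 83765 in WT input. In RNA from a mixed tissue, fewer cells or terminals of a type and less RNA in each cannot be told apart.

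The neuronal transport motors held the top of the order of levels, and the mitotic motors held the bottom. Averaged over the 12 libraries, Kif5a had 8564 normalized counts per kb of exon, Kif5c 6298 and Kif1a 6175. After these came Kif1b at 2442, Kif5b at 1425, Kif21a at 1374, Kif3c at 1359 and Kif3a at 1021, and no other member averaged above 1000. Kif5a and Kif5c are kinesin-1 heavy chains enriched in neurons, Kif1a and Kif1b are kinesin-3 motors of synaptic vesicle precursors and mitochondria, and Kif5b is the kinesin-1 heavy chain found in most cell types. Neighbours in this order did not all stand apart: Kif5a and Kif5c overlapped in both polysome groups, Kif5c and Kif1a in both input groups, and Kif5b, Kif21a and Kif3c over the 12 libraries.

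In the middle of the order lay Kif3b (543 per kb), Kif2a (467), Kif1c (268), Kif17 (194), Kif13b (167), Kif13a (147), Kif21b (133) and Kif16b (86.0). At the other end, 14 members averaged under 20 per kb, from Kif11 at 18.3 to Kif14 at 1.27. Of these, Kif11, Kif15, Kif18a, Kif18b, Kif20a, Kif20b, Kif22, Kif23, Kif2c, Kif4 and Kif14 are known for roles in mitosis or cytokinesis, Kif6 and Kif7 for roles in cilia, and Kif24 for control of cilium assembly at centrioles. A value of 10 was reached in all 12 libraries by 31 of the 35 members.

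**Figure D1:**
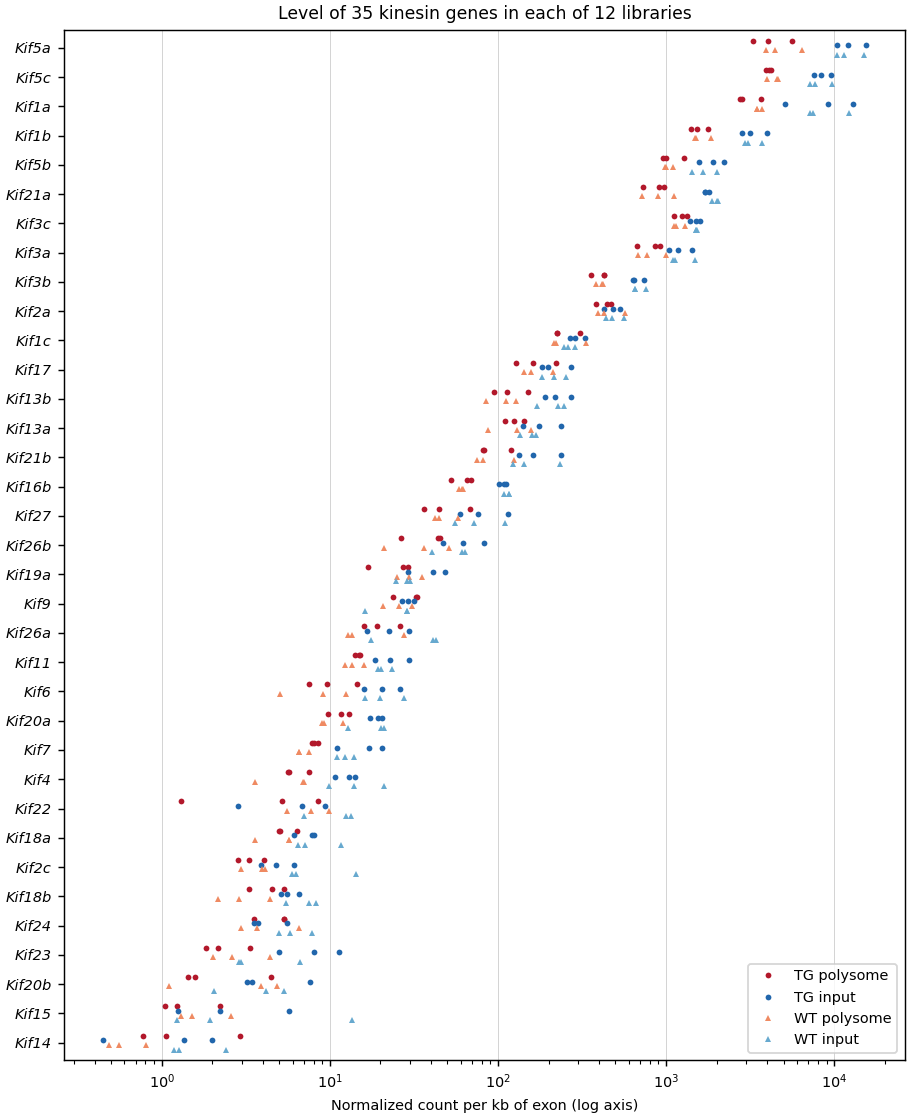
Normalized counts per kb of exon (log axis) for each of the 35 kinesin genes, ordered by their mean, with 1 point for each of the 12 libraries (circles TG, triangles WT; red and orange polysome, blue input). Kif5a, Kif5c and Kif1a lie highest, with means of 8564, 6298 and 6175, and for these genes all polysome points lie left of all input points.

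The comparison of polysome with input asks how strongly a transcript is represented in polysome RNA relative to other transcripts, and on the authors' scaling the kinesin genes were lower there as a group. Over both genotypes, 23 of 35 members were lower in polysome than in input at an adjusted p under 0.05 and 0 were higher (limma, all 12 libraries), against 18.4% of the 16962 genes tested that were lower and 17.1% that were higher. The difference was below 0 in 34 of 35 members, and its median was -0.74 on the log2(value + 1) scale, against 0.04 over all genes tested. For Kif3b, whose difference of -0.74 ± 0.10 (SE) equalled the median, the polysome mean was 0.598 of the input mean. With the genotypes taken apart, 12 members were lower in TG with a median of -0.73, against 9.86% of all genes lower and 8.19% higher, and 11 were lower in WT with a median of -0.76, against 8.59% of all genes lower and 5.36% higher. In neither genotype was a member called higher. In 15 members all 6 polysome values lay below all 6 input values, against 12.1% of all genes. The members were lower in polysome in all 6 pairs of same-numbered libraries for 23 genes, against 24.1% of all genes, and in 5 of 6 pairs for another 5, against 9.02%.

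These differences hold on the authors' scaling, under which the median of all genes lay near 0. The deposited values of a library summed to 62184460 to 74290309 in polysome, against 95483444 to 112557136 in input, and genes of the mitochondrial chromosome took 24.6% to 36.5% of that sum in polysome, against 43.1% to 49.9% in input. When all libraries were scaled to the same sum, a choice made after seeing the data, the median of all genes moved to 0.70 and that of the members to -0.07. On that scale Kif5a (-0.78), Kif1a (-0.71), Kif21a (-0.40) and Kif1b (-0.37) were called lower, where 2.6% of all genes were, while Kif1c (0.52), Kif2a (0.55), Kif3c (0.35) and Kif9 (0.72) were called higher. Of the 17036 genes tested on that scale, 10793 were called in either direction, so that a call higher was common there. When only nuclear protein-coding genes were scaled to the same sum, the median of all genes was 0.15 and that of the members -0.63, and 17 members were lower and 0 higher, where 14.5% of all genes were lower. In that fit 6274 of 16978 genes were called in either direction.

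The size of the difference varied with the library number. The median over the members was -0.57 in TG and -0.49 in WT in the pairs of number 1, -0.75 in TG and -0.76 in WT in those of number 2, and -0.93 in TG and -0.99 in WT in those of number 3. Leaving out 1 library at a time left 17 to 22 members lower over both genotypes, where 15.6% to 18.9% of all genes were. In WT it left 6 to 12 members lower, where 3.09% to 9.32% of all genes were. The WT count was 7 without WT polysome replicate 3 (3.46% of all genes) and 6 without WT input replicate 3 (3.09%), against 8.59% of all genes with every library. With the replicate number as a block, 25 members were lower over both genotypes, where 49.5% of all genes were called in either direction and 24.6% were lower. In that fit 18 members were lower in TG (16.6% of all genes) and 18 in WT (15.9%). In the block fit Kif13a (adjusted p = 0.0129), Kif17 (0.00729) and Kif26a (0.0348) also passed, and Kif18b (0.0510) no longer did.

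**Figure D2:**
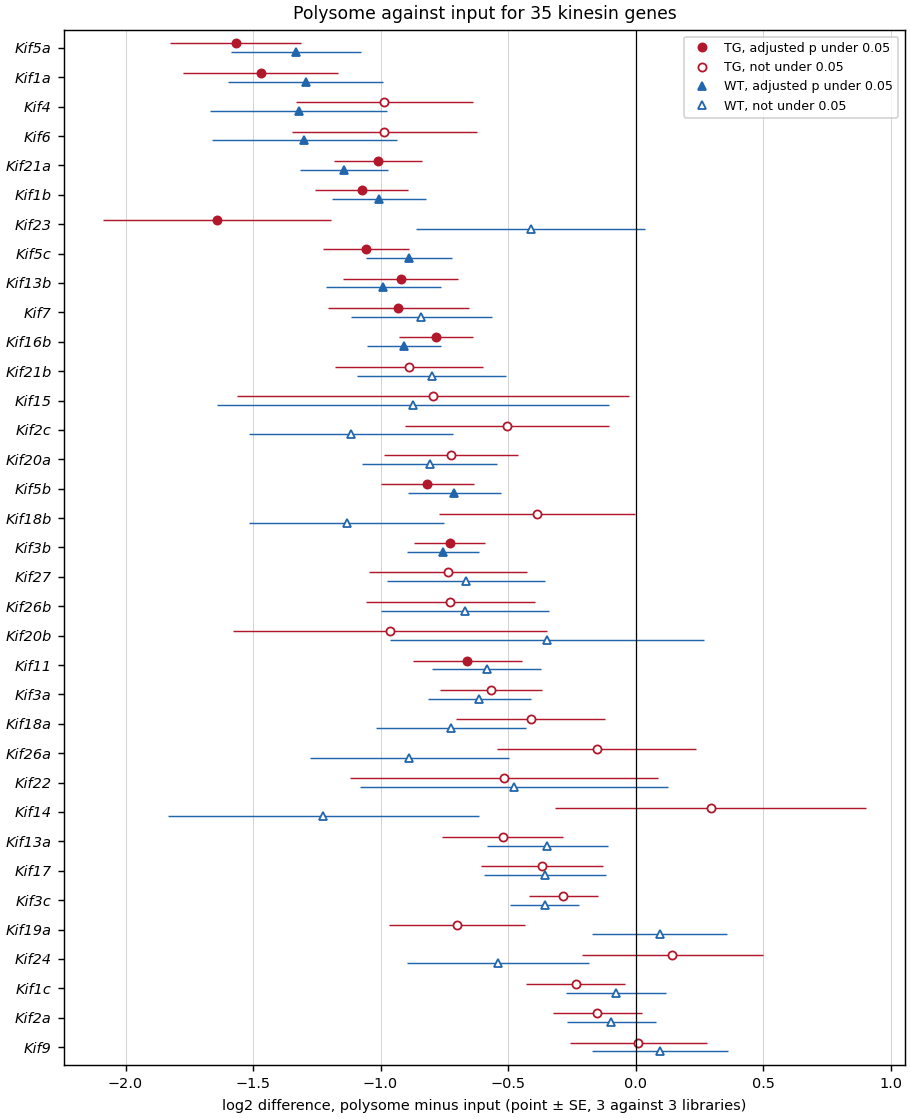
Log2 difference of polysome minus input for each of 35 kinesin genes in TG (red circles) and WT (blue triangles), as the fitted value ± SE from 3 against 3 libraries; filled symbols have an adjusted p under 0.05. Apart from Kif14, Kif24, Kif19a and Kif9, the points of both genotypes lie left of 0, and Kif5a and Kif1a have the largest differences among genes called in both.

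All 3 kinesin-1 heavy chains were lower in polysome in both genotypes, where 9.86% of all genes were lower in TG and 8.59% in WT. Kif5a had 28392, 23089 and 38978 normalized counts in TG polysome, against 84920.5, 72319 and 108606 in TG input, and 31172, 27616 and 44766 in WT polysome, against 80125, 72734 and 105598 in WT input. Every polysome library lay below every input library, and the log2 difference was -1.45 ± 0.18 (SE, adjusted p = 1.63e-04, limma). The polysome mean was 0.370 of the input mean. Kif5c had 29243, 29975 and 28046 in TG polysome, against 54371, 59724 and 68334 in TG input, and 32732, 28584 and 32987 in WT polysome, against 51473, 54715 and 69595 in WT input. The 3 TG polysome libraries of Kif5c were nearly equal, while its input libraries were highest for number 3, and the difference was -0.97 ± 0.12 (adjusted p = 1.41e-04). For Kif5b the values were 7958, 10133 and 7694 in TG polysome, against 12581, 17735 and 15177 in TG input, and 8751, 7846 and 7991 in WT polysome, against 11305, 13296 and 16035 in WT input. Again no polysome library reached an input library, with a difference of -0.76 ± 0.13 (adjusted p = 8.73e-04).

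The level of Kif5a relative to Kif5c was lower in polysome than in input. Per kb of exon, Kif5a was 0.992, 0.787 and 1.42 times the level of Kif5c in TG polysome, against 1.60, 1.24 and 1.62 times in TG input. In WT polysome the ratio was 0.973, 0.987 and 1.39, against 1.59, 1.36 and 1.55 in WT input. Kif5a was above Kif5c in all 6 input libraries and, in polysome, in the 2 libraries of number 3, so that its mean was the higher in both fractions. The ratio was lower in polysome in all 6 pairs and was not tested.

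Among the kinesin-3 genes, 4 of 7 were lower in polysome over both genotypes, where 18.4% of all genes were. The median difference over the 7 was -0.85. Kif1a, the motor of synaptic vesicle precursors and dense-core vesicles, had 25646, 26340.2 and 34461 normalized counts in TG polysome, against 47794, 85139 and 121383 in TG input, and 32402, 32409.8 and 34643 in WT polysome, against 66918, 70148 and 114048 in WT input. Its polysome values were close together and its input values spread widely, being highest in the libraries of number 3 in both genotypes. The log2 difference was -1.38 ± 0.21 (adjusted p = 5.56e-04). Kif1b, whose splice forms carry mitochondria or synaptic vesicle precursors, had 27025, 31168 and 24848 in TG polysome, against 49935, 55836 and 69958 in TG input, and 32632, 26283 and 26608 in WT polysome, against 54282, 52217 and 65214 in WT input. Both genotypes showed the same separation, and the difference was -1.04 ± 0.13 (adjusted p = 1.61e-04).

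The other kinesin-3 motors were split. Kif13b, which transports membrane-associated scaffold cargo such as the discs-large protein, had 1242, 1968 and 1479 in TG polysome, against 2463, 3527 and 2824 in TG input, and 1109, 1676 and 1444 in WT polysome, against 2209, 3196 and 2975 in WT input (-0.95 ± 0.16, adjusted p = 8.18e-04). Kif16b, a motor of early endosomes, had 592, 629.5 and 478 in TG polysome, against 988, 1008 and 914 in TG input, and 557, 563 and 529 in WT polysome, against 1053, 1059 and 985 in WT input (-0.85 ± 0.10, adjusted p = 1.42e-04). For both genes the highest polysome library was below the lowest input library, and the Kif16b libraries of a group were close together. Kif13a, a motor of recycling endosomes, had a difference of -0.43 ± 0.17 and did not pass (adjusted p = 0.0603), although it was lower in polysome in 6 of 6 pairs. Kif1c, a motor linked to Golgi and integrin traffic, had a difference of -0.16 ± 0.14 (adjusted p = 0.407) with overlapping libraries.

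Kif14, a kinesin-3 gene of cytokinesis, had the lowest level of the 35. It had 10.9, 30.1 and 8.06 normalized counts in TG polysome, against 20.6, 4.61 and 14.1 in TG input, and 5.02, 8.32 and 5.8 in WT polysome, against 13.2, 24.9 and 12.3 in WT input. The TG polysome library of number 2 was the highest of all 12 and the TG input library of the same number the lowest, and the difference of -0.47 ± 0.43 did not pass (adjusted p = 0.432).

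Kinesin-2 showed smaller differences, with 3 of 4 genes lower (18.4% of all genes) and a median of -0.48. Kif3b, which with Kif3a forms the heterotrimeric kinesin-2 of axonal and ciliary transport, had 2421, 2412 and 2022 in TG polysome, against 3595, 3615 and 4142 in TG input, and 2385, 2349 and 2147 in WT polysome, against 3673, 3691 and 4269 in WT input. The libraries of each fraction were tightly grouped and apart from the other fraction, with an adjusted p of 2.45e-04. Kif3a had 3093, 3305 and 2409 in TG polysome, against 3712, 4212 and 5128 in TG input, and 3576, 2744 and 2425 in WT polysome, against 4045, 3929 and 5351 in WT input, also without overlap. Its difference was -0.59 ± 0.14 (adjusted p = 0.00660).

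Kif3c, a neuronal partner of Kif3a, had 9152, 9921 and 8284 in TG polysome, against 11815, 11176 and 10272 in TG input, and 8531, 9641 and 8238 in WT polysome, against 11215, 11359.8 and 11166 in WT input. Its fractions did not overlap, but the difference of -0.32 ± 0.10 (adjusted p = 0.0210) was the smallest among the 23 genes called, and with libraries scaled to the same sum it was called higher. Kif17, the dendritic motor known for carrying NMDA receptor subunits, had 742, 1019 and 583 in TG polysome, against 904, 1248 and 842 in TG input, and 724, 979 and 652 in WT polysome, against 990.0, 1166 and 840.1 in WT input. The library of number 2 was the highest in each of the 4 groups of Kif17, so the groups overlapped although polysome was lower in 6 of 6 pairs. Its difference was -0.36 ± 0.17, with an adjusted p of 0.115 without the block and 0.00729 with it.

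All 5 kinesin-4 genes were lower in polysome over both genotypes (18.4% of all genes), with a median of -0.89. Kif21a, which curbs microtubule growth and is mutated in a human eye movement disorder, had 5903, 6288 and 4701 in TG polysome, against 11067, 11724 and 10992 in TG input, and 7176, 5826 and 4674 in WT polysome, against 13263, 12960.4 and 12209.9 in WT input. The fractions were far apart in both genotypes, and Kif21a had the smallest p of the 35 members (-1.08 ± 0.12, adjusted p = 9.01e-05). Kif21b, a motor of dendrites and axons that slows microtubule growth, had 999, 1007 and 1457 in TG polysome, against 1621, 1978 and 2908 in TG input, and 919.7, 999 and 1513 in WT polysome, against 1729.5, 1489.7 and 2849.9 in WT input. Number 3 was highest in all 4 groups, and the WT polysome library of that number exceeded 1 WT input library. The difference was -0.84 ± 0.21 (adjusted p = 0.00699) over both genotypes and did not pass in TG (0.0509) or in WT (0.0837) alone, whereas with the replicate block it passed in TG (adjusted p = 0.00251) and in WT (0.00422).

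Kif4, a chromosome-bound kinesin of dividing cells, had 31.1, 31.6 and 41.7 normalized counts in TG polysome, against 72, 78.3 and 58.9 in TG input, and 38.8, 19.7 and 38.3 in WT polysome, against 54.7, 76.5 and 116 in WT input. These low values nevertheless did not overlap between fractions (-1.15 ± 0.24, adjusted p = 0.00331). Kif7, which acts at the tip of the primary cilium in Hedgehog signalling, ranged from 29.8 to 39.0 in polysome, against 50.3 to 93.8 in input (-0.89 ± 0.20, adjusted p = 0.00413). Kif27, a relative of Kif7, ranged from 190.5 to 354 in polysome, against 291.5 to 596 in input, with overlap (-0.70 ± 0.22, adjusted p = 0.0254).

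The remaining families were represented at low levels. Of the kinesins of mitosis and cytokinesis in the kinesin-5, kinesin-6, kinesin-10 and kinesin-12 families, 3 of 6 were lower in polysome (18.4% of all genes), with a median of -0.71. Kif11, the spindle motor Eg5, ranged from 91.8 to 119 in polysome, against 139 to 222 in input (-0.62 ± 0.15, adjusted p = 0.00696), and Kif20a, a motor of the central spindle, passed with -0.77 ± 0.19 (adjusted p = 0.00710). Kif23, a component of centralspindlin, had 26.6, 17.2 and 14.5 in TG polysome, against 39.7, 89.7 and 63.3 in TG input, and 20.7, 34.8 and 16 in WT polysome, against 22.7, 23.4 and 52.9 in WT input. The TG fractions of Kif23 were apart and the WT fractions overlapped, and its call (-1.03 ± 0.32, adjusted p = 0.0238) was lost without TG polysome replicate 3, TG input replicate 2, WT polysome replicate 3 or WT input replicate 3. Kif22, a chromosome-bound kinesin, was not called, with 25.3, 6.37 and 41.8 in TG polysome, against 46.2, 33.3 and 14 in TG input, and 37.7, 27.3 and 48.2 in WT polysome, against 65.1, 61.1 and 34.4 in WT input. Its groups overlapped, as did those of Kif15 and Kif20b, which were not called either.

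In the kinesin-13 family of microtubule depolymerases, Kif2a, the form abundant in neurons, differed by -0.12 ± 0.12 (adjusted p = 0.474), with 3022, 2850.1 and 2432 in TG polysome, against 3404, 3073 and 2735 in TG input, and 3635, 2524 and 2736 in WT polysome, against 3606, 3031 and 2798 in WT input. Kif2a and Kif1c were the most abundant members without a call. Kif2c, its mitotic relative, passed (-0.81 ± 0.28, adjusted p = 0.0405) and Kif24 did not (-0.20 ± 0.25, adjusted p = 0.578). Kif18a and Kif18b, depolymerizing kinesin-8 motors of mitosis, passed narrowly (-0.57 ± 0.21 and -0.76 ± 0.27, adjusted p = 0.0488 and 0.0442), and Kif19a, the kinesin-8 of motile cilia, did not (-0.30 ± 0.19, adjusted p = 0.232).

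Kif6 and Kif9 are kinesin-9 genes of motile cilia and flagella, and they did not move together. Kif6 ranged from 30.5 to 87.9 in polysome, against 95.4 to 166 in input (-1.14 ± 0.26, adjusted p = 0.00459), while Kif9, the 1 member above 0, ranged from 88.9 to 142 in polysome, against 69.3 to 137 in input (0.05 ± 0.19, adjusted p = 0.852). In kinesin-11, a family of atypical kinesins, Kif26b passed (-0.70 ± 0.23, adjusted p = 0.0341) and Kif26a did not (-0.52 ± 0.28, adjusted p = 0.161). The calls of Kif18a, Kif18b, Kif2c, Kif26b and Kif27 were lost in 10, 10, 9, 6 and 6 of the 12 fits that each left out 1 library. Apart from these 5 genes and Kif23, the 17 called members that remain passed in each of these fits.

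Some markers of other cells were also called between the fractions over both genotypes, where 18.4% of all genes were lower and 17.1% higher. With the replicate block, 24.6% of all genes were lower and 24.8% higher. Markers of dividing cells, all 7 of which were detected, summed to 453 to 545 in TG polysome, against 1001 to 1045 in TG input, and to 428 to 485 in WT polysome, against 683 to 1175 in WT input. Only Mki67 and Top2a of the 7 were called lower in polysome, at -1.34 ± 0.17 and -1.10 ± 0.17. Astrocyte markers (6 of 6 detected) summed to 45465 to 54626 in TG polysome, against 74841 to 82263 in TG input, and to 41871 to 56706 in WT polysome, against 75117 to 79914 in WT input, with 2 of 6 called lower and 0 higher, or 2 lower and 2 higher with the replicate block. The lower sum came from Slc1a3 (-1.08 ± 0.14), the most abundant of the 6, and from Aldh1l1 (-0.76 ± 0.15), while 3 of the 6 were above 0 and the median was -0.09. The sums of ependymal markers, of the cells that carry motile cilia, overlapped between fractions, at 463 to 549 in TG polysome, 489 to 529 in TG input, 399 to 560 in WT polysome and 412 to 606 in WT input. Foxj1 was the largest part of that sum. Of the 10 markers, 6 were above 0, and 1 was called lower and 0 higher, or 2 lower and 0 higher with the replicate block. Tmem212 was listed at 0 in 2 WT input libraries, and no marker of these lists was at 0 in all 12. The part of these cells in the kinesin differences was not tested.

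The members are long genes, with a median exonic length of 6990 bases (3572 to 17608), against 4147 over all genes tested. Among the 35 members, the log2 difference correlated with log2 exonic length at r = -0.236 (Spearman's rho = -0.196), with log2 coding length at r = -0.240 (rho = -0.217) and with mean log2 level at r = -0.277 (rho = -0.185), as a description across genes that share the same 12 libraries. When each library's trend on exonic length was removed, 18 members were lower in polysome (15.5% of all genes) and the median difference was -0.51, against 0.03 over all genes. The difference was then -1.28 for Kif5a, -1.10 for Kif1a and -0.94 for Kif21a, and it was -0.51 for Kif1b, the longest member, and -0.54 for Kif13b. Kif3c (-0.13), Kif18a (-0.27), Kif21b (-0.46), Kif23 (-0.81) and Kif26b (-0.24) no longer passed.

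**Figure D3:**
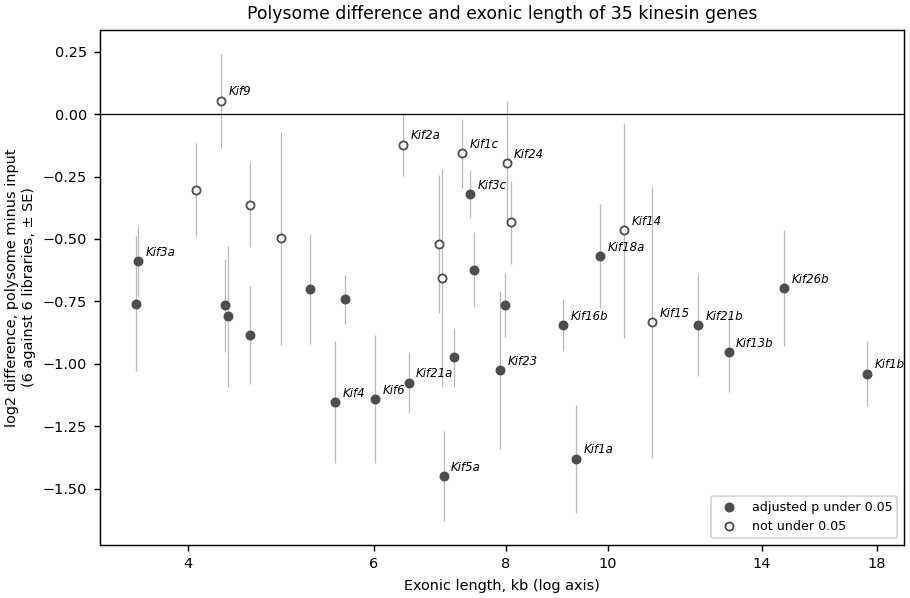
Log2 difference of polysome minus input over both genotypes (± SE, 6 against 6 libraries) against exonic length in kb (log axis) for the 35 kinesin genes; filled points have an adjusted p under 0.05. The points spread widely at each length: Kif5a at -1.45, Kif1c at -0.16 and Kif3c at -0.32 are of similar length.

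The summed kinesin level was lower in polysome, and its composition differed. Summed over the 35 members, the level was 18324, 18605 and 19933 normalized counts per kb in TG polysome, against 36190, 40641 and 51240 in TG input, and 20619, 18751 and 21748 in WT polysome, against 37602, 37515 and 50466 in WT input. As a share of the values of nuclear protein-coding genes, the members took 0.349%, 0.339% and 0.372% in TG polysome, against 0.661%, 0.713% and 0.854% in TG input, and 0.379%, 0.341% and 0.435% in WT polysome, against 0.667%, 0.662% and 0.871% in WT input. As a share of all deposited values the gap was smaller, at 0.239%, 0.249% and 0.252% in TG polysome, against 0.273%, 0.340% and 0.418% in TG input, and 0.229%, 0.241% and 0.269% in WT polysome, against 0.286%, 0.276% and 0.440% in WT input. Both shares were lower in polysome in all 6 pairs, and neither was tested. Kif5a, Kif5c, Kif1a and Kif1b together made up 68.7% ± 4.21 of the sum in TG polysome, against 78.3% ± 3.27 in TG input, and 71.1% ± 3.14 in WT polysome, against 77.9% ± 2.51 in WT input (SD, n = 3). Kif3c took 6.52% ± 0.818 in TG polysome, against 3.61% ± 0.854 in TG input, and 5.88% ± 0.949 in WT polysome, against 3.70% ± 0.618 in WT input. In each genotype the lowest polysome share of Kif3c was above the highest input share.

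Other genes of microtubule transport gave mixed results in the same comparison and on the same scaling, where 18.4% of all genes were lower and 17.1% higher. Of 11 genes of kinesin accessory proteins and of motors outside the symbol rule, 3 were lower and 0 higher, with a median of -0.16. They were Cenpe, the centromere kinesin (-1.67 ± 0.21), Kifap3, the accessory subunit of kinesin-2 (-0.88 ± 0.14), and Klc4, a kinesin light chain (-0.35 ± 0.11). The light chains Klc1 (-0.14 ± 0.13) and Klc2 (-0.32 ± 0.15), which bind the kinesin-1 heavy chains, did not pass.

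Of 25 genes of cytoplasmic dynein, the motor that runs the opposite way, and its activator dynactin, 6 were lower and 5 higher, with a median of 0.13. Both counts are near the shares of all genes. Dync1h1, the dynein heavy chain, had the largest fall (-1.93 ± 0.32), with a mean of 17653 ± 2813 in polysome, against 76773 ± 47407 in input (SD, n = 6), and Actr10, a dynactin subunit, had the largest rise (0.96 ± 0.20). Of 33 adaptor genes that link motors to cargo, 14 were lower and 3 higher, with a median of -0.30, from Mapk8ip3 at -1.32 ± 0.14 to Fez2 at 0.53 ± 0.11. Of 27 genes of microtubule-associated proteins, 14 were lower and 2 higher, with a median of -0.43, from Mapt, which encodes tau, at -1.28 ± 0.15 to Stmn1, a tubulin-binding protein, at 0.68 ± 0.15. Of 14 tubulin genes 8 were lower and 0 higher, with a median of -0.53, and Tuba1a, at -1.36 ± 0.20, shares 77.0% of its 31-base stretches with other genes, which leaves its own level uncertain. The share was also high for Tuba1b (68.9%), Tubb2a (56.4%), Tuba1c (55.3%), Tubb4b (48.6%) and Tubb2b (43.1%), so that the tubulin counts are not all separate measurements. Among the dynein genes it was 71.0% to 92.7% for Dynlt1a, Dynlt1b, Dynlt1c and Dynlt1f, and it was 22.4% for Stmn1. With the replicate number as a block, the accessory list had 4 genes lower and 1 higher, dynein and dynactin 6 lower and 8 higher, the adaptors 19 lower and 5 higher, the microtubule-associated proteins 15 lower and 6 higher, and the tubulins 9 lower and 1 higher. In that fit 24.6% of all genes were lower and 24.8% higher.

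**Figure D4:**
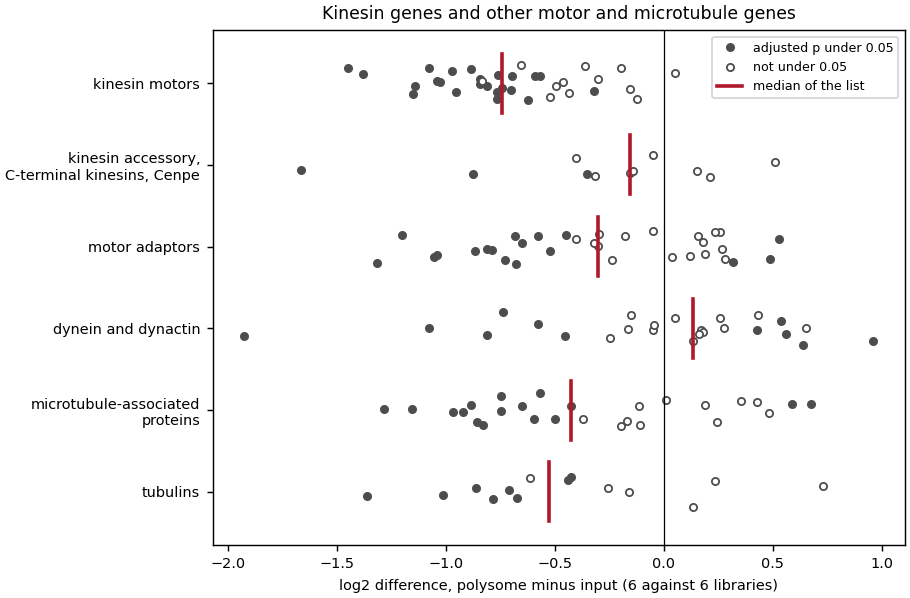
Log2 difference of polysome minus input over both genotypes for each gene of 6 lists, with filled points for an adjusted p under 0.05 and a red bar at the median of each list. The median is -0.74 for the kinesin motors, -0.16 for kinesin accessory genes, -0.30 for motor adaptors, 0.13 for dynein and dynactin, -0.43 for microtubule-associated proteins and -0.53 for tubulins.

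The comparison of genotypes asked whether any kinesin transcript differs with the Shank3 transgene in synaptosomes or their polysomes. In polysome, 0 of the 34 members tested passed (0% of 16312 genes, limma), 0 had an unadjusted p under 0.05, and the median difference of TG minus WT was 0.02, against 0.01 over all genes. In input, 0 of 35 members passed (0% of 16341 genes), 0 had an unadjusted p under 0.05, and the median was -0.01, against -0.01 over all genes. Among all genes, 53 in polysome and 80 in input had an unadjusted p under 0.05. Kif14 was the member not tested in polysome, where it reached 10 in too few libraries.

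These fits, without the block, did not call Shank3 either, so the absence of calls does not show that the members were unchanged. How small a difference could have been seen varied between members, with overlap between higher and lower ones. For the 17 members above a mean level of 500 normalized counts, the differences of TG minus WT lay between -0.22 and 0.15 in polysome and between -0.19 and 0.23 in input, with standard errors of 0.15 to 0.34 and of 0.13 to 0.36. For the lower members the standard errors ran from 0.20 to 0.64 in polysome and from 0.24 to 0.91 in input. Kif1a, with the third smallest p in polysome, had a difference of -0.21 ± 0.18 there and -0.04 ± 0.36 in input. Its 3 TG polysome values were lower than the WT polysome values of the same number, but the groups overlapped, since TG polysome reached 34461 and WT polysome began at 32402. For Kif5a, the difference was -0.20 ± 0.26 in polysome and 0.04 ± 0.23 in input, and for Kif5c -0.11 ± 0.16 and 0.06 ± 0.19.

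Apart from Kif1a, the members named here for small p-values between genotypes had low levels. Kif22 had the smallest in polysome (-0.90 ± 0.62) and differed by -0.86 ± 0.51 in input, and it was lower in TG in 3 of 3 pairs in both fractions. Kif23 had the smallest in input (0.98 ± 0.47), with TG above WT in 3 of 3 pairs there, and differed by -0.25 ± 0.41 in polysome. Kif19a had 119, 111 and 68.5 in TG polysome, against 121, 143 and 102 in WT polysome, and 168, 119 and 196 in TG input, against 117, 122 and 101 in WT input. The TG values of Kif19a lay lower in polysome (-0.32 ± 0.27) and higher in 2 of 3 pairs in input (0.47 ± 0.26). The adjusted p of each of these differences rounded to 1.00.

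With the replicate number as a block, Kif22, Kif23 and Kif26a in input and Kif22 in polysome had an unadjusted p under 0.05, and 0 members passed after adjustment, against 0% of all genes in input and 0.00613% in polysome. Markers of medium spiny neurons were above 0 in 11 of 11 genes in both fractions, with a median of TG minus WT of 0.24 in polysome and 0.19 in input, and markers of cortical excitatory neurons were below 0 in 6 of 8 genes in polysome and in 7 of 8 in input. Of all genes, 46.6% were below 0 in polysome and 52.9% in input. Genes of a list share the same libraries, so that their signs are not independent observations. Markers of choroid plexus were below 0 in 5 of 6 genes in both fractions, with a median of -0.49 in polysome and -0.48 in input, and their sum ran from 1000 to 33794 in TG polysome, against 852 to 17141 in WT polysome, and from 723 to 16163 in TG input, against 650.2 to 10508 in WT input. Ttr, the most abundant of the 6, had 1724, 595 and 32593 in TG polysome, against 458, 16197 and 16172 in WT polysome. In input the libraries of the same numbers were high, so that its genotype difference depends on which libraries were high. Markers of dividing cells were above 0 in 4 of 7 genes in polysome and in 6 of 7 in input, with medians of 0.17 in polysome and 0.35 in input. None of these markers was called between genotypes. The part of these cells in the kinesin values was not tested.

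The interaction of genotype and fraction, which tests whether the difference of polysome from input itself differs between TG and WT, was called in 0 of 35 members (0% of 16962 genes), and 0 members and 94 of all genes had an unadjusted p under 0.05. The median was -0.04, against 0.02 over all genes. The smallest p-values belonged to Kif19a (-0.79 ± 0.38), Kif23 (-1.23 ± 0.63) and Kif14 (1.52 ± 0.86), each with an adjusted p that rounded to 1.00. For the 17 members above a level of 500 the interaction lay between -0.24 and 0.13. Kif11, Kif23 and Kif7 passed in TG and not in WT, and Kif4 and Kif6 passed in WT and not in TG, without a called interaction for any of them. With the replicate block Kif4 and Kif7 passed in both genotypes, Kif11 and Kif23 in TG and not in WT, and Kif6 in WT and not in TG.

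**Figure D5:**
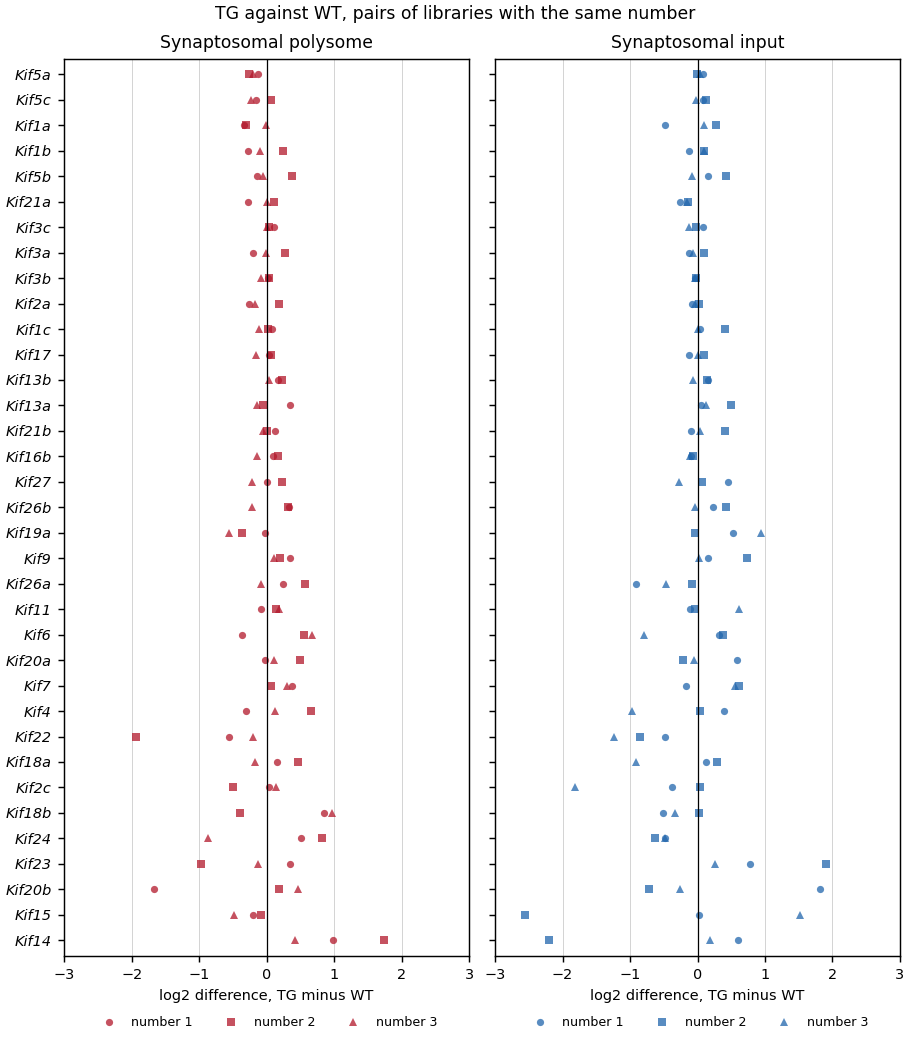
Log2 difference of TG minus WT for each of the 35 kinesin genes in the 3 pairs of libraries with the same number, in polysome (left, red) and in input (right, blue), with genes ordered by level. The points lie close to 0 for the genes at the top, from Kif5a to Kif16b, and spread up to about 2 log2 units or more for the lowest genes, such as Kif22, Kif15 and Kif14.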

How the data were processed

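The deposited table holds a signal that the authors made as normalized estimated counts per gene, which are not whole numbers; per the submitters' processing notes, Salmon 1.1.0, DESeq2 1.26.0 and R 3.6.2 were used with GRCm38. Per the labels' protocols, libraries were stranded total RNA. At most 46.1% of values up to 20 reads lay within 0.1 of a whole read, so no count test was run. Symbols, lengths and sequences came from GENCODE M21, which matched 21465 identifiers. Fits used limma 3.58.1 (R 4.3.3, variance trend) on log2(value + 1), which understates changes of low genes, for genes at 10 in at least 3 fitted libraries, with Benjamini-Hochberg adjustment over all of them. Genotype fits used the 6 libraries of a fraction and the others all 12. The replicate block was the number itself in genotype fits, and the number within each genotype in the others. Deviations from group means correlated at 0.242 to 0.545 between libraries with the same number (18 pairs) and at -0.413 to -0.000879 between the rest (36 pairs). The numbers therefore pair the libraries, but their meaning is not in the labels. Members and lists were chosen with earlier results of these data known. Per-library values are given for the 10 members with the smallest p, the 3 smallest of each other comparison, the highest 3 by level and the neuronal transport motors; from other lists, the largest called rise and fall. Values of Kif2a and the further genes named from those lists were added after their values were seen. The fits without the block were tested on simulated data, drawn without the correlation between same-numbered libraries. A change of 1 log2 unit was recovered between genotypes in 15.2% of changed genes in polysome and 20.4% in input. It was recovered in 11.1% for the interaction and 58.2% for polysome against input over both genotypes. For a change of 2 log2 units these shares were 78.8%, 76.8%, 62% and 94%. A sequence of 1 further kinesin pair is not reported here.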

Additional observations from a re-analysis of the deposited data

Results flagged for a closer look

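Kif19a, the kinesin-8 gene of motile cilia, was lower in polysome in all 3 TG pairs (log2 difference of polysome minus input -0.50, -0.10 and -1.50) and higher in all 3 WT pairs (0.05, 0.22 and 0.01). The difference between the genotypes, tested as the interaction, was -0.794 ± 0.377 (SE) and did not pass, before or after adjustment (adjusted p rounding to 1.00, limma fit of 12 libraries). Its level was low, between 68.5 and 195.8 normalized counts over the 12 libraries, and the gap was largest in the TG pair of number 3.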

How the results depend on the processing

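The alternatives were median-of-ratios scaling, a pseudocount of 0.5 or 5, other filters on low values, array weights, a fit without the variance trend, other sets of fitted libraries, the replicate block, removal of the length trend, and each library left out in turn. Scaling to the same sum of all values or of nuclear protein-coding genes was added after seeing the data. Of 144 counts of called members, 137 were within 1.5 times the reported one. The 137 include all counts between genotypes and for the interaction. There 0 members were called in every fit, so that these counts say little about stability. The exceptions were the scaling to the sum of all values (8 over both genotypes, 3 in TG and 3 in WT) and WT polysome against input, where 11 members were called: 18 with the replicate block, 3 with the block and without replicate 2, and 6 to 12 when 1 library was left out. With the sum of all values, 10793, 8547 and 7354 of 17036 genes were called over both genotypes, in TG and in WT. The share of all genes lower in WT was 8.59% in the reported fit and 15.9% with the block. It was 1.86% with the block and without replicate 2, and 3.09% to 9.32% when 1 library was left out. With the length trend removed, the median difference of polysome from input was -0.511 in TG and -0.514 over both genotypes. The median of TG minus WT in input ran from -0.076 to 0.113 when 1 library was left out, and was 0.038 with the block and without replicate 3. The median interaction ran from -0.063 to 0.083 when 1 library was left out. Over both genotypes, 13 of the 23 called members passed under all alternatives chosen earlier: Kif11, Kif13b, Kif16b, Kif1a, Kif1b, Kif21a, Kif3a, Kif3b, Kif4, Kif5a, Kif5b, Kif5c and Kif7; of these Kif1a, Kif1b, Kif21a and Kif5a also passed under both added scalings. With the sum of all values the medians of the members were -0.015 in TG, -0.121 in WT and -0.068 over both genotypes, 0.130 for TG minus WT in polysome and 0.025 for the interaction, and the sign turned for Kif11 (0.047), Kif13a (0.24), Kif14 (0.15), Kif17 (0.31), Kif18a (0.095), Kif19a (0.37), Kif1c (0.52), Kif22 (0.15), Kif24 (0.46), Kif26a (0.15), Kif2a (0.55), Kif3a (0.085) and Kif3c (0.35). Under the other alternatives the sign turned in genes without a call, namely Kif1c (0.027), Kif24 (0.026) and Kif2a (0.0070) with the length trend removed, Kif9 (0.05 with all libraries, -0.015 without WT polysome replicate 3, -0.084 without WT input replicate 2, and up to 0.132 in the other fits that left out 1 library) and Kif22 (0.093, block and without replicate 2). The cause of these changes was not tested. In input, where 1 read was worth up to 1.80 normalized counts, low values such as the 4.61 of Kif14 in TG input number 2 rest on few reads. Kif15 ran from 13.6 to 148.9 in input. The part of depth in the spread of the low members was not tested. Apart from the counts and genes given with their block values, the block changed no call of a kinesin gene over both genotypes, between genotypes or in the interaction.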

Other observations

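Some glial and neuronal markers were called between polysome and input, in both directions. Of all genes tested over both genotypes, 18.4% were lower and 17.1% higher, and 2 of 11 medium spiny markers is near that share. All 3 markers of oligodendrocyte precursors were lower in polysome, with Gpr17 at -0.88 ± 0.11 (log2 difference ± SE, adjusted p = 1.88e-04, limma), Cspg4 at -0.76 ± 0.12 and Pdgfra at -0.47 ± 0.10. Of 7 microglial markers 3 were higher, namely C1qa (0.73 ± 0.17), C1qb (0.51 ± 0.13) and Tmem119 (0.66 ± 0.15), and 0 were lower. Of 11 medium spiny markers, Adora2a (0.82 ± 0.26) and Tac1 (0.78 ± 0.23) were higher and 0 were lower. Among oligodendrocyte markers, Mog (1.05 ± 0.14) and Cldn11 (0.42 ± 0.14) were higher and Mag (-0.87 ± 0.21) was lower, so that these markers did not move together. With the replicate number as a block, the precursor count was the same, while 4 microglial markers were higher and 1 lower, 6 medium spiny markers higher and 2 lower, and 2 oligodendrocyte markers higher and 3 lower. In that fit 24.6% of all genes were lower and 24.8% higher.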
